A study of Homo sapiens with 6 samples.

Results

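The HOX genes were followed in 6 RNA-seq libraries of C4-2 cells. C4-2 is a prostate cancer line that was made from LNCaP and grows with little androgen. The Enz-R group, 3 libraries, came from a C4-2 line resistant to enzalutamide, a drug that blocks androgen signalling. The parental group, 3 libraries, came from C4-2 cells of the line of origin. The labels name no other agent or allele, and state neither whether the drug was present at collection nor whether the resistant line is 1 clone or several. The members are the 39 protein-coding genes chosen by symbol, HOXA, HOXB, HOXC or HOXD followed by a number, out of 59565 loci in the deposited count table. No level or fold change decided which gene was a member. The family was picked with results of this same comparison known, so its fold changes and calls are a description and support nothing beyond themselves.

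HOX genes encode homeodomain transcription factors that give cells their position along the body axis. They sit in 4 clusters that arose by duplication, and genes with the same number in different clusters are paralogs. Within a cluster low numbers are used early and toward the head, and high numbers late and toward the tail, limb ends and urogenital tract. Prostate epithelium comes from the tail end of that map and keeps HOXB13 on. On GRCh38, HOXA holds 11 members on the minus strand of chromosome 7. HOXB holds 10 on the minus strand of chromosome 17 (48528526 to 48729178). HOXC holds 9 on the plus strand of chromosome 12 (53938765 to 54056030), and HOXD holds 9 on the plus strand of chromosome 2 (176092891 to 176190907).

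Library totals ran from 15673404 to 23351394 counts in Enz-R and from 19400321 to 28247038 counts in the parental group, so 3 counts in a library stood for 0.104 to 0.194 CPM (counts scaled to library size). Luminal prostate transcripts that mark C4-2 were present in all libraries, with KLK3, the gene of prostate-specific antigen, at 2533 ± 63.9 CPM in Enz-R and 4768 ± 249 CPM in the parental cells (SD, n = 3 each). All 9 identity markers passed the count filter, and HOXB13 is itself one of them. In Enz-R 22.2% (2) of them were higher and 66.7% (6) lower, against 32.4% and 32.3% of all tested genes. Summed markers of other cells were 3.33 to 3.43 CPM in Enz-R and 3.66 to 4.73 CPM in the parental group for 4 basal genes. For 5 leukocyte genes the sums were 2.01 to 2.83 CPM in Enz-R and 2.80 to 3.62 CPM in the parental group. They were 2.94 to 3.43 CPM in Enz-R and 7.31 to 9.76 CPM in the parental group for 4 endothelial genes, and 49.5 to 58.6 CPM in Enz-R and 60.3 to 63.4 CPM in the parental group for 6 fibroblast genes, most of it COL1A1. None of these lists had a member at 0 in all 6 libraries. Many HOX members had levels at or below these sums, and the part of other cells in the HOX values was not tested. Transcripts encoded by mitochondrial DNA made up 14.9% ± 0.519 of all counts in Enz-R and 10.2% ± 1.27 in the parental group (SD, n = 3 each). With those genes left out, an alternative chosen after seeing the data, the fit called 8 HOX members higher and 11 lower, the counts given below. The labels name no separate cultures, and the p-values therefore reflect the spread of these libraries alone, which may be technical.

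The 3 changes that stood out by position were a lower HOXA cluster, a higher HOXC cluster, and the last gene of HOXD detected in Enz-R against 2 counts over the whole parental group. In this bulk RNA, fewer cells using a gene and less RNA per cell cannot be told apart. A gene was called when its adjusted p, given by edgeR (quasi-likelihood test, Benjamini-Hochberg adjustment over all 19029 tested genes), was under 0.05. Of the 39 members 25 passed the count filter, and of these 8 were called higher in Enz-R, 11 were called lower and 6 were not called. Of all tested genes 32.4% were called higher and 32.3% lower. At 2-fold or more, 4 members were higher, against 11% of all tested genes, and 7 were lower, against 8.66% of all tested genes. The median log2 fold change of Enz-R over parental was -0.03 over the tested members and 0.01 over all tested genes. By cluster, HOXA had 9 of 10 tested members lower and 0 higher, and HOXC had 5 higher and 0 lower of 7. HOXB was mixed, with 2 lower and 2 higher of 7. HOXD had 1 tested member, which was higher.

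**Figure D1:**
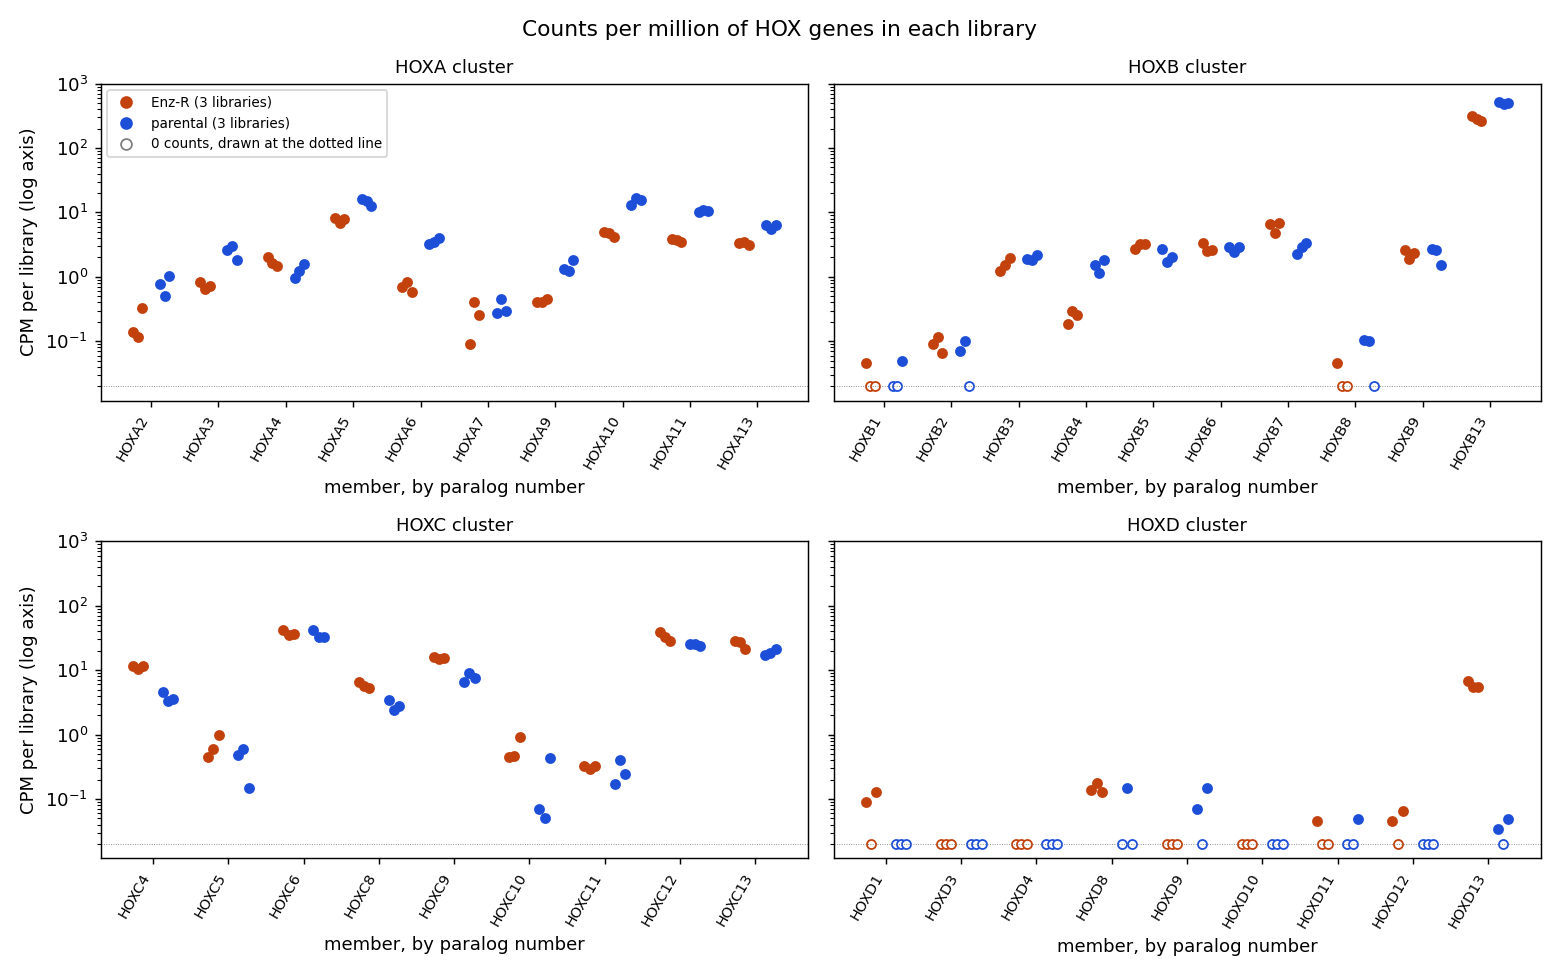
CPM (log axis) of 38 of the 39 HOX members in the 3 Enz-R and 3 parental libraries, 1 panel per cluster with members ordered by paralog number; open circles at the dotted line stand for 0 counts. HOXB13 lies above all others at 261 to 315 CPM in Enz-R and 480 to 510 CPM in parental cells, and HOXD13 is the only HOXD member above 1 CPM.

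**Figure D2:**
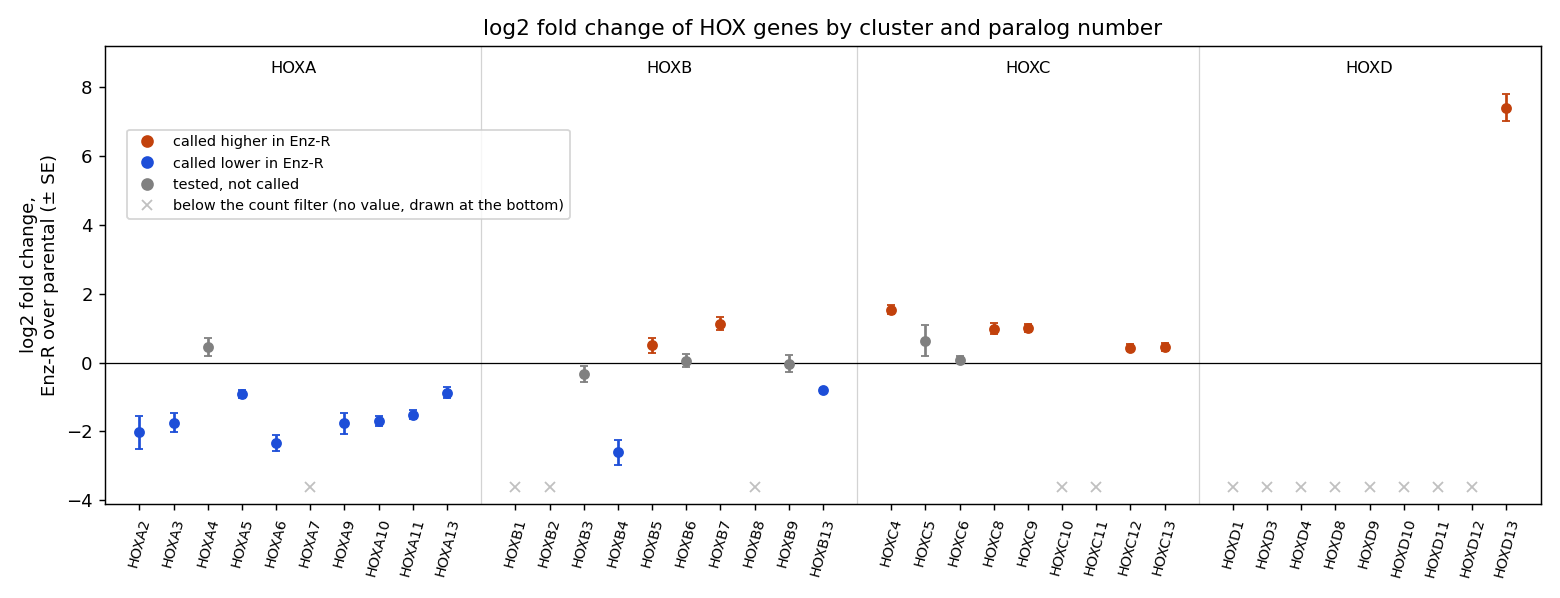
Log2 fold change of Enz-R over parental (± SE) for 24 of the 25 tested HOX members in cluster order; crosses at the bottom mark the 14 members below the count filter, which have no value. The HOXA values lie from -2.34 to 0.46, the HOXC values from 0.09 to 1.54, and HOXD13 is at 7.41.

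The promoters of members that differ in this way are shown for the tail ends of HOXA and HOXD. The RefSeq promoter table (GRCh38.p14) had entries for 20 of the 39 members, 27 promoters in all, and each window below is the 250 bases before a RefSeq start, 5′ to 3′ on the strand of the gene. HOXD13 is shown because it was the member detected almost only in Enz-R, and HOXD8 because it is a gene of the same cluster that stayed near the limit of detection. HOXA11 and HOXA13 are shown because they fell together at the tail end of HOXA. The windows are chr2:176092471-176092720 (plus strand) for HOXD13, chr2:176129455-176129704 (plus strand) for HOXD8, chr7:27185233-27185482 (minus strand) for HOXA11 and chr7:27200092-27200341 (minus strand) for HOXA13. Capitals mark matches, on either strand, to 4 motifs: TATAAA (the core promoter box), TTTATG (a core bound by posterior HOX proteins), TGTTCT (a steroid receptor half-site) and TGACAG (a MEIS core).
HOXD13: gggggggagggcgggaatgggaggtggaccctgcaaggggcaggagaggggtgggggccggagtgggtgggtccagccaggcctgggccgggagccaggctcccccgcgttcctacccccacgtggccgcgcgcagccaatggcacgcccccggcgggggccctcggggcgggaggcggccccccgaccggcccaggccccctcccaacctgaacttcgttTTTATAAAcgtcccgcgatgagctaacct
HOXD8: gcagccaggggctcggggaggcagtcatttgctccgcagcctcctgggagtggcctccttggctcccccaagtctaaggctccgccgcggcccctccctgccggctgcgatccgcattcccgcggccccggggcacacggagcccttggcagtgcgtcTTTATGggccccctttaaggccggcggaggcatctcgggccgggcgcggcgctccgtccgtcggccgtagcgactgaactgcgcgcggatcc
HOXA11: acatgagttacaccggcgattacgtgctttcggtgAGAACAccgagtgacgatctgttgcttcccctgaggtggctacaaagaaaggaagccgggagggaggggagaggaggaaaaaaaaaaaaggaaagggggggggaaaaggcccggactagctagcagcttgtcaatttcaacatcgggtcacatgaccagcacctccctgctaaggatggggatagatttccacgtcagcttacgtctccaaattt
HOXA13: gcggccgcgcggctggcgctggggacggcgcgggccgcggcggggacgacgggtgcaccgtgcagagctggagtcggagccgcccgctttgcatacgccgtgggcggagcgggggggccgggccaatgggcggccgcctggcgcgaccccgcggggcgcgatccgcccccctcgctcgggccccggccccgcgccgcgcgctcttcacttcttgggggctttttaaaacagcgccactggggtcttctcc

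The HOXD13 window held TATAAA on both strands in 1 overlapping run, its plus strand match starting 27 bases before the RefSeq start. That window ends at 176092720, whereas the HOXD13 gene of GENCODE 29 starts at 176092891, so the distance holds for the RefSeq start only. The motif occurs in 10.7% of the 35116 promoters of the table and in 4 of the 20 HOX genes with an entry. HOXD8 held TTTATG 92 bases before the start, a motif of 9.64% of all promoters and of 3 of the 20 HOX genes. The windows of HOXD12, HOXD11, HOXD10, HOXD4, HOXD3 and HOXD1, not shown, held none of the 4 motifs. HOXD8 thus does not stand for the other HOXD genes near the limit of detection. HOXA11 held AGAACA, the reverse strand of TGTTCT, 215 bases before its start. TGTTCT is in 12.4% of all promoters and in 3 of the 20 HOX genes, and TGACAG in 13% of all promoters and in 2 of the 20 HOX genes. HOXA13 held none of the 4. The windows had 21 CpG pairs in HOXD13, 28 in HOXD8, 11 in HOXA11 and 40 in HOXA13. The median was 19 over the 27 HOX promoters and 11 over all promoters. The matches are letters in these windows, and binding was not measured.

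In HOXA the members fell along nearly the whole length of the cluster. Their summed level was 24.3 ± 1.11 CPM in Enz-R and 58.0 ± 1.56 CPM in the parental cells (SD, n = 3 each), 2.38-fold lower in Enz-R. All 4 tested posterior members, HOXA9 to HOXA13, fell. HOXA10, a gene of the uterus and the limb, had 5.02, 4.71 and 4.14 CPM in the Enz-R libraries, against 12.9, 16.7 and 15.8 CPM in the parental libraries. Its log2 fold change was -1.69 ± 0.14 (adjusted p = 4.18e-08). HOXA11, which acts in the middle limb segment and in the reproductive tract, had 3.84, 3.76 and 3.49 CPM in Enz-R, against 10.2, 11.0 and 10.5 CPM in parental cells, a log2 fold change of -1.51 ± 0.13 (adjusted p = 7.98e-08). For both genes the highest Enz-R library lay below the lowest parental one. The share of all tested genes that separate in this way was not counted. HOXA13, needed for the hand and foot and for the genital tract, had 3.38, 3.47 and 3.17 CPM in Enz-R, against 6.37, 5.46 and 6.44 CPM in parental cells. It fell by 0.87 on the log2 scale (SE 0.15, adjusted p = 0.000115), 1.82-fold, the smallest fall of a called HOXA member.

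HOXA9, known for its part in blood stem cells and leukaemia, had 0.411, 0.412 and 0.453 CPM in Enz-R, against 1.32, 1.25 and 1.81 CPM in parental cells. Its log2 fold change was -1.76 ± 0.31 (adjusted p = 0.000147), on 23 counts over the Enz-R group and 100 over the parental group. The central member HOXA5, a gene of the lung and airway in the developing mouse, had the highest level of the cluster per kilobase of exon. It had 8.22, 6.94 and 7.90 CPM in Enz-R, against 15.9, 15.0 and 12.4 CPM in parental cells, a log2 fold change of -0.91 ± 0.12 (adjusted p = 1.23e-05). On that scale, which lets genes of different length be set side by side, HOXA5 stood at 4.50 CPM per kb in Enz-R and 8.46 in parental cells. HOXA11 stood at 1.60 in Enz-R and 4.58 in parental cells, and HOXA10 at 1.25 in Enz-R and 4.08 in parental cells. HOXA6 had 0.685, 0.824 and 0.582 CPM in Enz-R, against 3.20, 3.51 and 4.05 CPM in parental cells. This was the largest fall of the cluster, -2.34 ± 0.23 on the log2 scale (adjusted p = 4.44e-07).

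At the head end, HOXA3, which patterns the thymus and parathyroid in the mouse, had 0.822, 0.647 and 0.712 CPM in Enz-R, against 2.58, 3.00 and 1.81 CPM in parental cells (-1.74 ± 0.27, adjusted p = 4.39e-05). HOXA2, a gene of the hindbrain and face, had 0.137, 0.118 and 0.324 CPM in Enz-R, against 0.766, 0.501 and 1.02 CPM in parental cells (-2.02 ± 0.48, adjusted p = 0.00165), which is 10 counts over the Enz-R group and 53 over the parental group. HOXA4 went against its neighbours without being called, at 1.72 ± 0.267 CPM in Enz-R and 1.28 ± 0.319 CPM in parental cells (0.46 ± 0.26, adjusted p = 0.128). HOXA7 did not pass the filter, with 13 counts over Enz-R and 23 over the parental group. The deposited counts are not stated to use strand, so reads of a member and of an antisense RNA over its exons cannot be told apart. This touches HOXA7, with 62.5% of its exon bases under exons of HOXA-AS3, and HOXA6 with 39.3% under the same RNA. It also touches HOXA11, with 31.1% under HOXA11-AS, and HOXA10, with 16.4% under HOXA10-AS. Further members touched include HOXB6 (16.3% under HOXB-AS3), HOXA4 (14.5% under HOXA-AS2) and HOXA9 (13.9% under HOXA10-AS). HOXA3 has 8.69% under HOXA-AS2 and 6.69% under HOXA-AS3.

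HOXB was dominated by HOXB13 (ENSG00000159184, chromosome 17, 48724763 to 48729178), the member of the family best known in prostate epithelium. HOXB13 had 315, 278 and 261 CPM in the Enz-R libraries, against 510, 480 and 497 CPM in the parental libraries. It fell by 0.80 on the log2 scale (SE 0.07, adjusted p = 1.63e-07), 1.74-fold. It stayed the most abundant member in both lines, at 82.1 CPM per kb in Enz-R and 143 CPM per kb in parental cells. Its share of the summed per-kilobase level of all 39 members was 54.1% ± 0.723 in Enz-R and 69.4% ± 0.537 in the parental cells (SD, n = 3 each). The summed CPM of the family followed it, at 463 ± 42.0 in Enz-R and 662 ± 17.4 in parental cells. The other 38 members summed to 178 ± 14.4 CPM in Enz-R and 167 ± 3.35 CPM in parental cells, a gap smaller than the SD of the Enz-R libraries.

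The rest of HOXB was low and mixed. HOXB7, expressed in many carcinomas, had 6.62, 4.88 and 6.86 CPM in Enz-R, against 2.23, 2.90 and 3.37 CPM in parental cells, a log2 fold change of 1.13 ± 0.19 (adjusted p = 8.37e-05). HOXB4, used in blood stem cells, had 0.183, 0.294 and 0.259 CPM in Enz-R, against 1.53, 1.15 and 1.81 CPM in parental cells. Its log2 fold change of -2.61 ± 0.36 (adjusted p = 1.36e-05) was the largest fall in the family, on 13 counts over Enz-R and 104 over the parental group. HOXB4 and HOXB7, 2 genes of the same cluster and strand, thus moved in opposite directions. HOXB5 was called higher (0.50 ± 0.21, adjusted p = 0.0443), but its adjusted p was 0.069 to 0.175 under 7 of 14 alternatives, among them leaving out Enz-R replicate 2 or 3 or parental replicate 2 or 3. HOXB3 (-0.34 ± 0.23, adjusted p = 0.211), HOXB6 (0.06, adjusted p = 0.783) and HOXB9 (-0.03, adjusted p = 0.928) were not called, and the signs of HOXB6 and HOXB9 turned under several alternatives. HOXB1, HOXB2 and HOXB8 had 1 to 5 counts per group and were not tested.

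In HOXC no tested member was lower, and the cluster summed to 132 ± 12.2 CPM in Enz-R and 94.9 ± 4.32 CPM in parental cells (SD, n = 3 each). HOXC4, the first member of the cluster, had 11.6, 10.5 and 11.8 CPM in Enz-R, against 4.53, 3.36 and 3.61 CPM in parental cells. Its log2 fold change was 1.54 ± 0.14 (adjusted p = 1.62e-07), the largest rise outside HOXD. HOXC9, which specifies thoracic motor neurons in the mouse, had 16.1, 15.1 and 15.5 CPM in Enz-R, against 6.65, 9.17 and 7.56 CPM in parental cells (1.01 ± 0.12, adjusted p = 3.73e-06). HOXC8, another thoracic gene, had 6.62, 5.65 and 5.31 CPM in Enz-R, against 3.48, 2.45 and 2.83 CPM in parental cells (0.99 ± 0.17, adjusted p = 0.000112). In these 3 genes all Enz-R libraries lay above all parental ones. How many of all tested genes separate in this way was not counted, so this adds nothing to the calls.

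HOXC12 and HOXC13, at the tail end of the cluster, rose as well. HOXC12 had 39.4, 32.8 and 28.6 CPM in Enz-R, against 25.7, 25.4 and 23.6 CPM in parental cells (0.44 ± 0.10, adjusted p = 0.0012). HOXC13, a gene of hair and nail, had 28.9, 27.5 and 21.5 CPM in Enz-R, against 17.2, 18.6 and 21.3 CPM in parental cells (0.46 ± 0.11, adjusted p = 0.00191), so its lowest Enz-R library lay just above its highest parental one. HOXC6 was not called. HOXC6, whose transcript is used as a urine marker of prostate cancer, had 41.4, 35.6 and 36.5 CPM in Enz-R, against 41.6, 32.4 and 32.7 CPM in parental cells, and the groups overlapped. Its log2 fold change was 0.09 ± 0.10 (adjusted p = 0.442), with -0.01 under total count scaling, and it was called (0.21, adjusted p = 0.0418) without parental replicate 1. HOXC4 and HOXC6 share 484 exon bases on the same strand, 17.8% of HOXC4. HOXC5 was not called (0.63 ± 0.45, adjusted p = 0.235). HOXC10, with 32 counts over Enz-R and 12 over the parental group, and HOXC11, with 17 over Enz-R and 18 over the parental group, did not pass the filter. With no count filter, HOXC10 was called higher (1.71, adjusted p = 0.00537), and it was not called by DESeq2 (1.73, adjusted p = 0.0776).

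HOXD was near 0 apart from its last gene, HOXD13 (ENSG00000128714, 176092891 to 176095938). HOXD13, which shapes the digits and the external genitalia, had 151, 92 and 84 counts in the Enz-R libraries, against 1, 0 and 1 counts in the parental libraries. This was 6.90, 5.41 and 5.44 CPM in Enz-R, against 0.0348, 0 and 0.0488 CPM in parental cells, a ratio of 208 with a 95% counting interval of 57.2 to 1726. The call (adjusted p = 3.23e-10) was kept under all 14 alternatives, with log2 fold changes of 6.99 to 7.80, and the interval covers counting error only. Per kilobase HOXD13 stood at 2.64 CPM in Enz-R, between HOXA11 at 1.60 and HOXC8 at 3.10 in the same cells. Its nearest neighbours in the cluster did not come with it: HOXD12 had 2 counts over Enz-R and 0 over the parental group, HOXD11 had 1 count in each group, and HOXD10 had 0 in all 6 libraries. HOXD9 had 0 counts over Enz-R and 5 over the parental group. HOXD8, the gene with the TTTATG window above, had 8 counts over Enz-R and 3 over the parental group, a ratio of 3.39 with a 95% counting interval of 0.815 to 19.9. HOXD3 and HOXD4 had 0 counts in all libraries, and HOXD1 had 4 counts over Enz-R and 0 over the parental group. A rise like that of HOXD13 was seen in none of the 8 other HOXD members, and smaller changes were not detectable at so few counts.

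The 4 members of paralog group 13, the most posterior of the family, split evenly and at very different levels. HOXD13 and HOXC13 rose in Enz-R, and HOXA13 and HOXB13 fell. Per kilobase, HOXC13 stood at 10.7 CPM in Enz-R and 7.86 CPM in parental cells, and HOXA13 at 0.657 CPM in Enz-R and 1.20 CPM in parental cells. HOXB13 exceeded the other members of the group in every library, and the gene that ranked last of the 4 differed, HOXA13 in Enz-R and HOXD13 in parental cells.

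**Figure D3:**
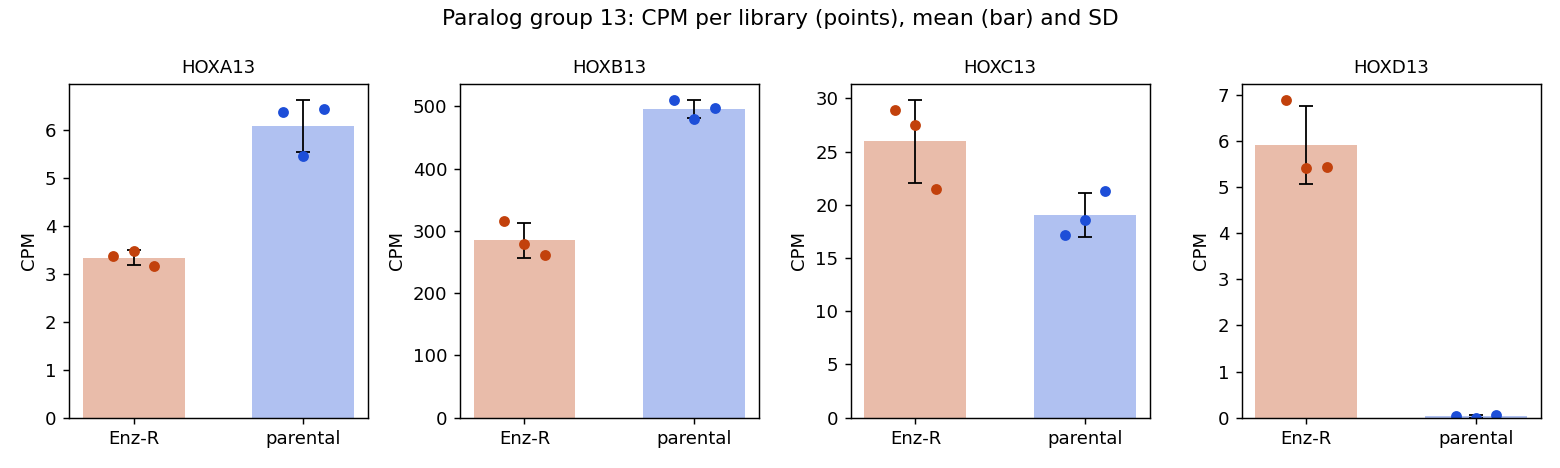
CPM of the 4 genes of paralog group 13 in each Enz-R and parental library (points), with the mean (bar) and SD (n = 3 each), on a linear axis of its own for each gene. HOXA13 and HOXB13 are lower in Enz-R (3.34 and 285 CPM, against 6.09 and 496 CPM in parental cells), HOXC13 is higher and HOXD13 is near 0 in the parental libraries.

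Set by number across clusters, a group sum with 1 leading member moves with that member because of how it is made, and is no separate result. In group 3 the leading member differed, HOXB3 at 1.57 CPM in Enz-R and HOXA3 at 2.46 CPM in parental cells. Paralog group 10, led by HOXA10, summed to 5.24 ± 0.223 CPM in Enz-R and 15.3 ± 2.06 CPM in parental cells (SD, n = 3 each). Group 11, led by HOXA11, summed to 4.03 ± 0.194 CPM in Enz-R and 10.9 ± 0.539 CPM in parental cells. Group 4, led by HOXC4, summed to 13.3 ± 0.697 CPM in Enz-R and 6.61 ± 0.734 CPM in parental cells. Group 7, led by HOXB7, summed to 6.38 ± 0.958 CPM in Enz-R and 3.17 ± 0.598 CPM in parental cells. Group 6, where HOXC6 was the main member and HOXA6 fell, summed to 41.4 ± 3.59 CPM in Enz-R and 41.9 ± 5.06 CPM in parental cells, a difference smaller than either SD. By region of the axis, 3 of 4 tested anterior members (numbers 1 to 3) were lower and 0 higher. Of 11 tested central members (4 to 8) 36.4% (4) were higher and 27.3% (3) lower, near the 32.4% and 32.3% of all tested genes. Of 10 tested posterior members (9 to 13) 40% (4) were higher and 50% (5) lower. HOXA and HOXC each had calls in 1 direction, and HOXB had both. The anterior region had calls in 1 direction, and the central and posterior regions each had both. This is a description of counts with no test.

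With HOXB13 set aside, the makeup of the remaining HOX signal differed between the lines. HOXA took 14.9% ± 0.447 of the summed CPM per kb of the other 38 members in Enz-R, against 38.2% ± 0.979 in parental cells (SD, n = 3 each). HOXC took 69.9% ± 1.36 in Enz-R, against 52.9% ± 0.849 in parental cells. HOXD took 3.96% ± 0.290 in Enz-R, against 0.124% ± 0.064 in parental cells, nearly all of it HOXD13. HOXB1 to HOXB9 took 11.2% ± 1.24 in Enz-R, against 8.82% ± 0.330 in parental cells. In each of these shares the 3 Enz-R libraries lay on one side of the 3 parental ones.

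**Figure D4:**
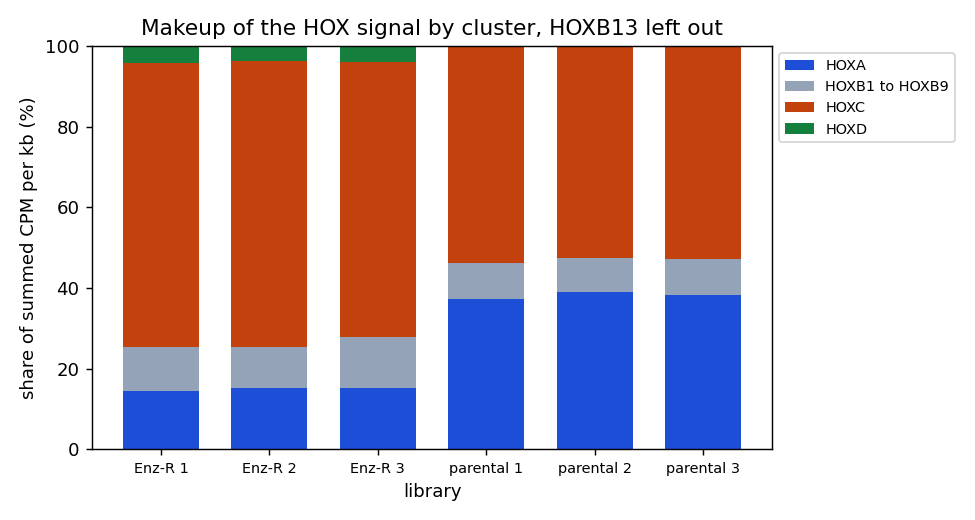
Share of the summed CPM per kilobase of exon that each cluster took in every library, HOXB13 left out, with the 3 Enz-R libraries on the left and the 3 parental libraries on the right. HOXA covers 14.4% to 15.2% in Enz-R and 37.2% to 39.1% in parental cells, and HOXC covers 68.3% to 70.9% in Enz-R and 52.3% to 53.9% in parental cells.

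In HOXA and HOXC the called noncoding RNAs of the list moved the way the called coding members did. Over the 4 clusters, 18 RNAs of the list were in the deposited table and 9 passed the filter, of which 4 were higher and 4 lower in Enz-R, where 32.4% and 32.3% of all tested genes were higher and lower. In HOXA, HOTTIP, transcribed away from HOXA13 at the tail end, was at 0.593 ± 0.120 CPM in Enz-R and 1.36 ± 0.304 CPM in parental cells (-1.16 ± 0.30). HOXA11-AS had a log2 fold change of -1.61 ± 0.17, close to that of HOXA11, whose exons it overlaps, and HOXA-AS3 had -2.18 ± 0.34. HOXA-AS2 had 1 count over Enz-R and 32 over the parental group, a ratio of parental over Enz-R of 25.1 with a 95% counting interval of 4.20 to 1024. HOTAIRM1, at the head end, was not called (0.06). In HOXB, HOXB-AS3 fell by 2.94 on the log2 scale (SE 0.51), with 7 counts over Enz-R and 72 over the parental group. In HOXC, HOXC-AS1 rose (2.15 ± 0.34) as did HOXC13-AS (0.61 ± 0.16), which shares 172 exon bases with HOXC13. The HOXC antisense RNA HOTAIR had 16 counts over each group and was not tested.

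HOXD held a pair of noncoding RNAs that rose although the coding genes around them stayed near 0. HAGLR, antisense to HOXD1 and HOXD3, had 79, 72 and 59 counts in the Enz-R libraries, against 10, 10 and 8 in the parental libraries (3.24 ± 0.25). HAGLROS had 65, 62 and 49 counts in Enz-R, against 6, 5 and 4 in parental cells (3.87 ± 0.28). The pair share 413 exon bases on opposite strands, 36.8% of HAGLROS, so part of their counts may be the same reads. They lie at the HOXD1 end of the cluster, while HOXD13 lies at the other end. Against the run of HOXC, the noncoding gene ENSG00000260597 (chromosome 12, 54019910 to 54022589) fell by 2.50 on the log2 scale (SE 0.21, adjusted p = 5.62e-08). It had 63 counts over Enz-R and 463 over the parental group. This gene lies between HOXC8 and HOXC5, within the annotated spans of HOXC4 and HOXC6 and on the same strand. It was named after its value was seen.

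**Figure D5:**
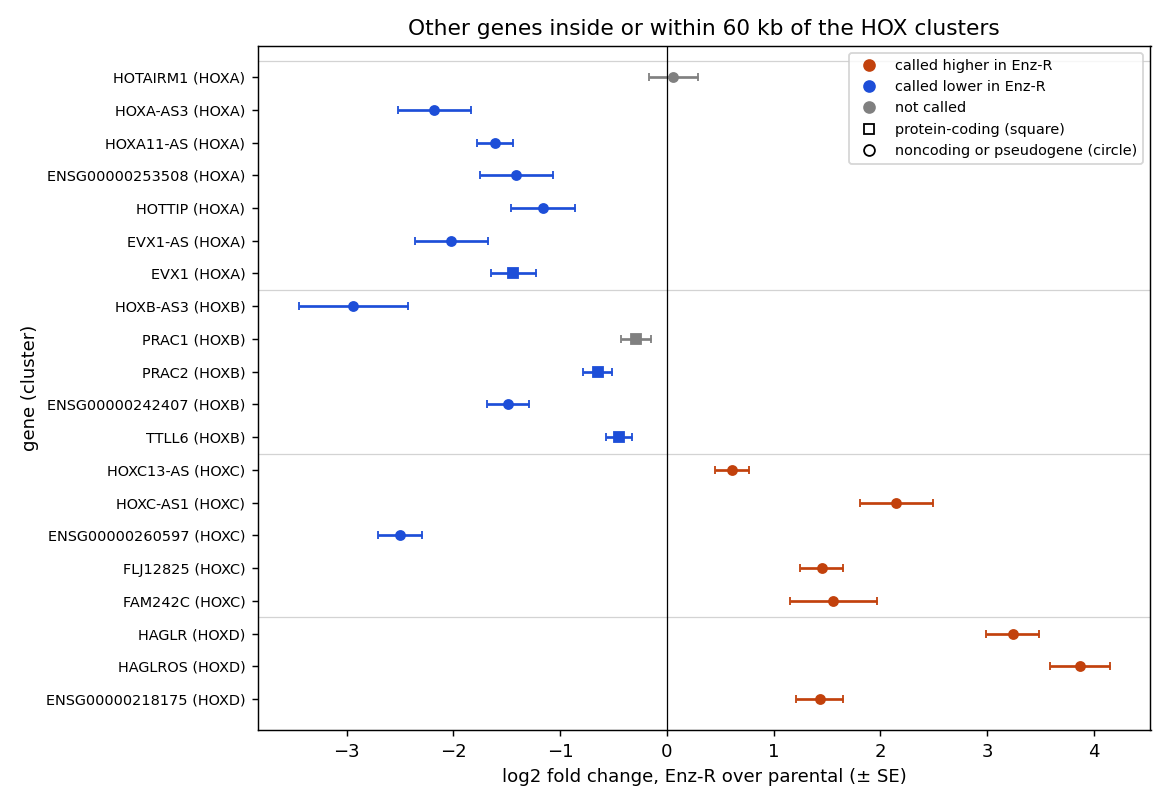
Log2 fold change of Enz-R over parental (± SE) for the other tested genes inside or within 60 kb of the 4 clusters, grouped by cluster; squares are protein-coding genes and circles are noncoding genes or pseudogenes. Of 7 such genes at HOXA 6 are lower, of 5 at HOXB 4 are lower, of 5 at HOXC 4 are higher, and all 3 at HOXD are higher. Among all tested genes 32.4% were higher and 32.3% lower. Some of the genes drawn share exon bases with a member or with each other, so their counts are not all separate.

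Genes flanking the clusters were set beside the members. Of 19 tested genes on this list 36.8% (7) were higher in Enz-R and 42.1% (8) lower, near the 32.4% and 32.3% of all tested genes. The homeobox gene EVX1, next to HOXA13, was at 1.15 ± 0.129 CPM in Enz-R and 3.14 ± 0.340 CPM in parental cells (-1.44 ± 0.21). SKAP2, an adaptor protein gene on the other side of HOXA, was at 30.7 ± 1.95 CPM in Enz-R and 72.9 ± 2.68 CPM in parental cells (-1.24 ± 0.07). Within 1 Mb of HOXA, 4 of 5 tested protein-coding genes on the SKAP2 side and 3 of 4 on the HOXA13 side were lower and 0 higher, with median log2 fold changes of -0.31 and -0.50, against -1.60 over the tested HOXA members. Beside HOXB13, PRAC2 fell (-0.65 ± 0.14), and PRAC1, a prostate and colon transcript, was not called (-0.29 ± 0.14, adjusted p = 0.083). Beside HOXD13, LNPK was not called (-0.13 ± 0.07, adjusted p = 0.0931), and EVX2, which lies between them, had 0 counts in the Enz-R libraries and near 0 in the parental ones. Within 1 Mb of HOXC, 13 of 25 tested genes on the HOXC13 side were higher and 7 lower, and 2 of 6 on the HOXC4 side were higher and 3 lower. Within 1 Mb of HOXB, 9 of 14 tested genes on the HOXB13 side were higher and 2 lower, and 9 of 16 on the other side were higher and 3 lower. Within 1 Mb of HOXD, 1 of 3 tested genes on the HOXD13 side was higher and 0 lower, and on the other side the 1 tested gene, MTX2, was higher (0.43).

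The proteins that HOX factors bind DNA with, the TALE homeodomain genes, had 1 of 8 tested members higher and 3 lower in Enz-R, where 32.4% and 32.3% of all tested genes were higher and lower. PBX4 was at 24.1 ± 1.21 CPM in Enz-R and 9.57 ± 1.05 CPM in parental cells (1.33 ± 0.10), and PBX2 at 50.7 ± 2.34 CPM in Enz-R and 61.0 ± 2.54 CPM in parental cells (-0.26 ± 0.06). MEIS1, the cofactor best known with HOXA9, fell at low level (1.25 ± 0.483 CPM in Enz-R and 2.94 ± 0.234 CPM in parental cells, -1.18 ± 0.25). PKNOX2, also at low level, fell further (1.10 ± 0.190 CPM in Enz-R and 3.93 ± 0.0261 CPM in parental cells, -1.84 ± 0.20). Polycomb complexes keep HOX clusters silent, and Trithorax proteins keep them on. Of 11 tested PRC2 genes 4 were higher, 1 of them PHF19 (0.29, adjusted p = 0.0439), which lost its call under 7 alternatives, and 4 were lower, with PHF1 (0.75 ± 0.07) and EZH1 (0.55 ± 0.08) highest and JARID2 (-0.45 ± 0.07) and SUZ12 (-0.42 ± 0.06) lowest. The PRC2 enzyme gene EZH2 was not called (-0.16 ± 0.09, adjusted p = 0.160). Of 12 PRC1 genes 6 were higher and 2 lower, with PCGF2 (1.08 ± 0.07), BMI1 (0.80 ± 0.07) and CBX8 (0.63 ± 0.06) higher and PHC3 (-0.77 ± 0.07) and PHC2 (-0.72 ± 0.07) lower. Of 12 genes of the MLL and Trithorax complexes and the H3K27 demethylases 5 were higher and 5 lower, with KMT2B (0.57 ± 0.06) and KDM6A (0.51 ± 0.06) higher and KMT2C (-0.70 ± 0.06) and KMT2D (-0.36 ± 0.06) lower.

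Retinoic acid turns on HOX clusters from their head end, and of 11 tested genes of its pathway 3 were higher and 6 lower in Enz-R, where 32.4% of all tested genes were higher and 32.3% lower. ALDH1A3, which makes retinoic acid, was at 7.06 ± 0.521 CPM in Enz-R and 38.2 ± 2.84 CPM in parental cells (-2.44 ± 0.09, adjusted p = 1.35e-11). Of the receptors, RARA was higher (0.57 ± 0.09) and RXRA lower (-0.74 ± 0.06). The largest receptor change was a fall of RARB at low level (-2.06 ± 0.23), at 0.780 ± 0.117 CPM in Enz-R and 3.32 ± 0.285 CPM in parental cells. The other called receptors changed less, in both directions. Of 10 tested homeobox genes linked to the HOX clusters by descent or neighbourhood 4 were higher and 2 lower, against the same shares of all tested genes. PDX1 was at 9.24 ± 0.657 CPM in Enz-R and 4.89 ± 0.516 CPM in parental cells (0.93 ± 0.13). DLX1, whose transcript is read together with that of HOXC6 in the urine test, was at 14.5 ± 2.42 CPM in Enz-R and 27.6 ± 0.852 CPM in parental cells (-0.92 ± 0.10), while HOXC6 itself was not called.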

How the data were processed

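RNA was extracted with TRIzol and made into mRNA libraries with an NEBNext Ultra kit, per the labels, with paired-end reads of 150 bp. Alignment was to GRCh38 with HISAT2, per the submitters' processing notes. The aligner's version, the counter, the annotation and the strand mode were not given in the sources used here. The deposited table holds raw read counts per gene and library, made by the authors before any scaling.

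All 6 libraries entered 1 fit, with edgeR 4.0.16 under R 4.3.3: filterByExpr, TMM, quasi-likelihood test, no covariate, and Benjamini-Hochberg adjustment over 19029 genes at a threshold of 0.05. The method was tested on simulated data. The biological coefficient of variation was 7.2%. CPM uses TMM-scaled totals, and CPM per kb the union exon length in GENCODE 29. SEs derive from the F statistic and can be too small at few counts. A gene with 1 to 3 counts in either group is given by the ratio of its summed counts, with a 95% counting interval, which covers counting error only. Replicate pairs differed by 3.91 to 8.98 in chi-square per degree of freedom, more than counting error. A second HOXC5 identifier, a processed transcript, was left out.

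Members and gene lists were chosen with earlier results of these data known. Some genes that these rules cover, 1 member among them, are not reported here. Every other member is named. Library values are given in full for the 10 most abundant members, for the called members with the 5 largest rises and the 5 largest falls, and for paralog group 13. Of other lists, at most 3 called genes per direction with 5 CPM or more in the higher group were named, with further genes as context. The other settings tried were a replicate block, each library left out in turn, size factors from DESeq2, total count scaling, no count filter, at least 50 counts in 3 libraries, and the tools DESeq2 1.42.0 and limma-voom (limma 3.58.1). Leaving out mitochondrially encoded genes was added after seeing the data.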

Additional observations from a re-analysis of the deposited data

How the results depend on the processing

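The counts of 8 HOX members higher and 11 lower became 7 to 9 higher and 11 lower when 1 library was left out, and 12323 called genes became 11445 to 12290. With at least 50 counts in 3 libraries, 17 members were tested and 6 were lower, since fewer members passed the filter. The log2 ratio of summed HOXA CPM was -1.25, and -1.35 under total count scaling. Of 342 member values under alternatives, 325 kept their direction and their side of the threshold. HOXB5 lost its call in 7, and HOXC6 gained one in 1. These values cover the 25 tested members. Of the 14 below the filter, 11 could be tested with no filter, and 1 was called, HOXC10 (higher). It took the place of HOXB5 in the 8 called higher there. The sign turned for members that were not called: HOXB6 ran from -0.10 (without Enz-R replicate 1) to 0.15 (without Enz-R replicate 2), with -0.02 without parental replicate 2 and -0.03 under total count scaling. HOXB9 ran from -0.25 (without parental replicate 3) to 0.13 (without parental replicate 1), with 0.09 without Enz-R replicate 2, 0.06 without parental replicate 2, 0.00 at 50 counts and 0.01 with limma-voom. HOXC6 was -0.01 under total count scaling. The causes were not tested.

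With the replicate number as a block (replicate block), 8 members were higher, 11 lower and 12337 genes called in all. Deviations of same-numbered libraries correlated at 0.049, -0.008 and 0.011, so no pairing by number was seen. The labels do not state a pairing, and these values cannot settle whether same-numbered libraries were handled together. Members HOXD3, HOXD4 and HOXD10 had 0 counts in all libraries.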
